A study of Mus musculus with 2 samples.

Results

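Tuft mimetic cells are thymic epithelial cells that switch on the gene program of the tuft cells of gut and airway, which are chemosensory epithelial cells. They were taken as the cells that the authors' deposited annotation calls Tuft, which were 4118 of 9185 annotated cells. The data were RNA counts of single medullary thymic epithelial cells (mTEC) from C57BL/6 mice, sorted as the mTEClo fraction that lacks Pdpn and CD104, after digestion with collagenase and dispase and depletion of CD45+ cells. A total of 7 samples, each marked with its own antibody tag against H2-Kb (a hash tag), went through 1 10x Genomics run with 3' chemistry, so all share 1 RNA library. The 4 Hnf4dTEC samples were Foxn1(cre/+) Hnf4a(fl/fl) Hnf4g(-/-). The 3 Hnf4ctrl samples were Foxn1(cre/+) Hnf4a(fl/+) Hnf4g(+/-), so they carried the same cre and had lost 1 working copy of Hnf4g and could lose 1 of Hnf4a. Foxn1 drives the cre in thymic epithelium, whereas the Hnf4g allele is written as a plain null without a cell type. The age of the mice, and whether each sample was 1 animal, are not given in the sources used here, so p-values measure only the spread between these samples.

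Tuft cells depend on the transcription factor Pou2f3. They sense succinate through the receptor Sucnr1 and bitter or other compounds through taste receptors, which signal through G proteins, a phospholipase and the Trpm5 cation channel. They release IL-25, lipid mediators and acetylcholine, and carry a tuft of long, stiff microvilli with cores of bundled actin. HNF4A and HNF4G are related nuclear receptors that drive genes of gut and liver epithelium, among them genes that build the enterocyte brush border. The comparison asked which genes of the tuft cells differed when both HNF4 factors were targeted.

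Tuft cells numbered 837, 726, 700 and 504 in the 4 Hnf4dTEC samples, against 445, 415 and 491 in the 3 Hnf4ctrl samples. They made up 46.8 ± 7.12% of annotated cells in Hnf4dTEC samples (SD, n = 4), against 44.0 ± 12.3% in Hnf4ctrl samples (SD, n = 3). The groups overlapped, and the exact two-sided permutation test over samples gave p = 0.686. With 35 splits, counted on both sides, this test cannot give a p under 0.05. Leaving out Hnf4ctrl sample 3, which had the lowest share, turned the difference of 2.78 percentage points to -3.67. Each Hnf4dTEC sample contributed between 6878052 and 10925780 unique molecular identifiers (UMIs, tags that each mark 1 captured RNA molecule) from Tuft cells, and each Hnf4ctrl sample between 5033372 and 6901983. The median depth was 12251 ± 463 UMIs per Tuft cell in Hnf4dTEC samples (SD, n = 4) and 12097 ± 1435 in Hnf4ctrl samples (SD, n = 3; exact permutation p = 0.914). No pair of samples agreed within sampling noise (chi-square over its degrees of freedom, 3.50 to 7.57). In 20 of the 4118 cells the most abundant hash tag was that of another sample, and 14 cells held 10 or more haemoglobin UMIs, between 1 and 3 per sample. The largest of these held 8055, and the part of these cells in the results was not tested.

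The label was checked with 6 defining markers, Pou2f3, Trpm5, Dclk1, Avil, Il25 and Gnat3, and each had its highest pooled level in Tuft cells among the 15 annotated classes. The class was made from the expression of the same cells, so its levels beside other cells are a description without a test. Levels are in CPM, the UMI count of a gene scaled to a common library size with TMM (trimmed mean of M-values), and each molecule is counted once at its 3' end whatever the length of the gene. Gnat3, the taste G protein gustducin, had 2168 ± 283 CPM in Tuft cells, against 83.3 ± 21.8 CPM in all other annotated cells (SD, n = 7 samples each). Avil, the actin-binding protein advillin, had 1419 ± 53.1 CPM in Tuft cells, against 68.5 ± 12.4 CPM in other cells. Il25, the cytokine, had 107 ± 16.9 CPM in Tuft cells, against 4.43 ± 0.991 CPM in other cells. When every cell was thinned to 4000 UMIs, which kept 4006 Tuft cells and 4887 other cells, Avil had a UMI in 98.1 ± 0.53% of Tuft cells and in 11.9 ± 1.71% of other cells (SD over 7 samples). Il25 had one in 26.3 ± 2.46% of Tuft cells and in 1.38 ± 0.39% of other cells. Before thinning the median depths were 12186 UMIs per Tuft cell and 14125 per other cell, and Il25 was found in 51.0% of Tuft cells and 3.77% of other cells. The part of free RNA in the low shares of other cells was not tested.

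**Figure D1:**
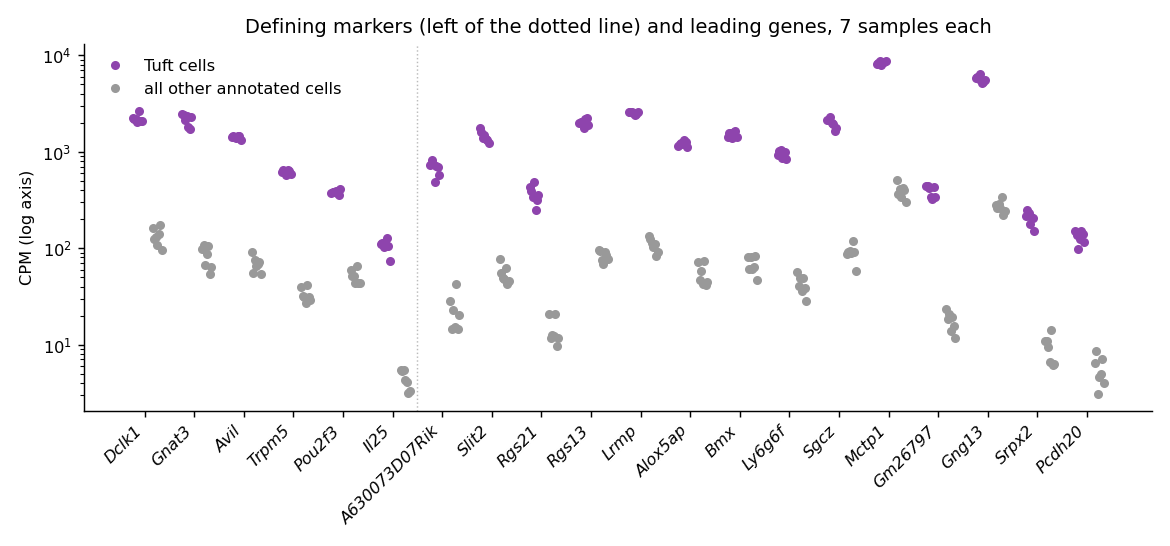
CPM on a log axis of the 6 defining markers and of 14 leading genes in Tuft cells (purple) and in all other annotated cells (grey), with 1 point for each of the 7 samples. For every gene drawn, all Tuft points lie above all points of other cells.

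Genes of taste signalling were among those with the largest excess in Tuft cells. The 20 leading genes, ranked by the mean log2 ratio of Tuft to other cells (with 1 CPM added to each) among genes with at least 50 CPM in Tuft cells, were led by A630073D07Rik, with a mean log2 ratio of 4.94. They included Gng13, the gamma subunit of the taste G protein, at 5690 ± 402 CPM in Tuft cells and 269 ± 36.6 CPM in other cells (SD, n = 7 samples each). Gnb3, a beta subunit partner, had 1337 ± 269 CPM in Tuft cells, against 64.3 ± 11.3 CPM in other cells. Rgs13 and Rgs21, which switch G proteins off, had mean log2 ratios of 4.58 and 4.63. Alox5ap, the helper of leukotriene synthesis, and Chat, which makes acetylcholine, had mean log2 ratios of 4.49 and 4.34. The bitter receptor Tas2r105 was among these 20 with 79.7 ± 15.97 CPM in Tuft cells, against 3.02 ± 1.21 CPM in other cells.

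Of the targeted genes, Hnf4g was detected in Tuft cells of every sample and Hnf4a was close to the limit of detection. Hnf4g had 51.5, 41.8, 55.6 and 45.4 CPM in the 4 Hnf4dTEC samples, against 63.0, 52.6 and 56.7 CPM in the 3 Hnf4ctrl samples. The groups overlapped, and the log2 fold change of -0.24, with an SE of 0.10, did not pass the test (edgeR adjusted p = 0.522). Hnf4g averaged 132 ± 31.3 CPM in the other cells, and Tuft ranked 10 of 15 classes for its pooled level. Hnf4a had 13 UMIs over all Tuft cells of Hnf4dTEC samples and 8 over those of Hnf4ctrl samples, too few to test. Sequence near the 3' end can be counted whether or not an upstream exon is deleted, and the deleted exons are not given in the sources used here. These counts therefore do not check the deletion. Foxn1, the source of the cre promoter, had 1.93 ± 0.37 CPM in Hnf4dTEC Tuft cells (SD, n = 4) and 2.10 ± 0.33 CPM in Hnf4ctrl Tuft cells (SD, n = 3), against 46.1 CPM in other cells.

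A small set of genes differed between genotypes in Tuft cells, and 4 of the 10 that fell, Calml4, Anks4b, Vil1 and Myo15b, are on the lists of the microvillar adhesion complex and of the tuft cytoskeleton. These lists held 4 and 15 of the 14760 genes tested, and were chosen with earlier results of these data known. Of 14760 genes tested on summed counts, 13 passed an adjusted p of 0.05 (0.0881%). Of these, 10 were lower in Hnf4dTEC Tuft cells (0.0678%) and 3 were higher (0.0203%). An unadjusted p under 0.05 was reached by 1290 genes (8.74%). The median log2 fold change over all genes tested was near 0, and 50.5% of them were below 0. For each of the 13 genes the values of the groups did not overlap, as was true of 8.97% of all genes tested (4.78% lower and 4.19% higher in Hnf4dTEC samples).

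Among the genes that fell were 2 members of the intermicrovillar adhesion complex, which ties the tips of brush border microvilli to each other. The upstream sequences of these and of Vil1 are shown because these genes build the brush border and fell together. Each is the 250 bases before the RefSeq transcription start in GRCm38.p6, which is mm10, written 5' to 3'.

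Calml4 (chr9:62857854-62858103, plus strand): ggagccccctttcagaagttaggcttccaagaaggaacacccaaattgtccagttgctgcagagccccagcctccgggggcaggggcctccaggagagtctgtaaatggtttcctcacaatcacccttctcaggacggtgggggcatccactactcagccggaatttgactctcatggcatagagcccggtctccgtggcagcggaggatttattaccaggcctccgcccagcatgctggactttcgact

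Anks4b (chr7:120173608-120173857, plus strand): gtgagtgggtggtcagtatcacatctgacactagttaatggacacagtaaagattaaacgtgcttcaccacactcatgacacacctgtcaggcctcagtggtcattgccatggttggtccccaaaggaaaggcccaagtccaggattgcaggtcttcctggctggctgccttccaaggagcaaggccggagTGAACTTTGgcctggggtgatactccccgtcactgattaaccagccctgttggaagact

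Vil1 (chr1:74409134-74409383, plus strand): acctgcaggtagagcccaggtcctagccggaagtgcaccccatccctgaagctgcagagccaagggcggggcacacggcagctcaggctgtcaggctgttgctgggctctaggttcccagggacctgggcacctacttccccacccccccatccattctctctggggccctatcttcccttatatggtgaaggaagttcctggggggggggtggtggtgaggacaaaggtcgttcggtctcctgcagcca

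Capitals in the Anks4b sequence mark a match to the core CAAAGNNCA of the HNF4 motif, read on the minus strand and starting 59 bases before the start site. The core and the fuller motif CAAAGTCCA were searched on both strands of the 11 RefSeq promoters used for 10 of the 13 genes. Any promoter on chromosome 18, which holds Dcc, was left out of this search. The core was found in 2 promoters, those of Anks4b and Efcab5, and the fuller motif in 0. Of 32851 mouse promoters of the same length, 5.49% held the core and 0.384% the fuller motif. A match is a description of the letters and not evidence of binding.

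Calml4 encodes a calmodulin-like light chain of the myosin in this complex (ENSMUSG00000032246.14, chr9:62858080-62875921 of GRCm38, the build of all positions given here, plus strand). It had 132, 107, 119.9 and 139 CPM in the 4 Hnf4dTEC samples, against 217, 206 and 235 CPM in the 3 Hnf4ctrl samples. Every Hnf4dTEC sample lay below every Hnf4ctrl sample, and the log2 fold change of -0.82 had an SE of 0.09 (edgeR adjusted p = 0.00512). At 4000 UMIs per cell it had a UMI in 36.0 ± 2.86% of Hnf4dTEC Tuft cells (SD, n = 4) and 48.9 ± 2.11% of Hnf4ctrl Tuft cells (SD, n = 3). Pooled over samples, the shares of the other classes ran from 6.92% in Secretory to 53.1% in Ciliated cells. Entero-hepato cells and all Tuft cells pooled were both at 40.2%. Anks4b, a scaffold protein of the complex (ENSMUSG00000030909.6, chr7:120173858-120185586, plus strand), was scarce. It had 4.09, 4.04, 4.13 and 5.71 CPM in Hnf4dTEC samples, against 10.0, 9.64 and 14.03 CPM in Hnf4ctrl samples. It had the most negative log2 fold change of the 13 genes, -1.35 (SE 0.19, edgeR adjusted p = 0.0338), and it lost its call in 6 of the 7 fits that left out 1 sample, where the adjusted p was as high as 0.147. With cells thinned to 1 depth its adjusted p was 0.334.

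The complex also holds the protocadherins Cdhr2 and Cdhr5, which form the links between tips. Cdhr2 had 49.4, 42.4, 49.4 and 44.8 CPM in Hnf4dTEC samples, against 85.5, 75.1 and 58.0 CPM in Hnf4ctrl samples, and did not pass (log2 fold change -0.64, edgeR adjusted p = 0.108). Cdhr5 had between 79.0 and 80.3 CPM in Hnf4dTEC samples, against 90.3 to 129 CPM in Hnf4ctrl samples, and did not pass either (log2 fold change -0.47, edgeR adjusted p = 0.163). Of the 6 members of the complex, Myo7b and Ush1c were too rare to test, with 71 and 36 UMIs. The 4 tested members all had a log2 fold change below 0, with a median of -0.73, beside 50.5% of all genes tested below 0. In edgeR 2 passed, both lower, beside 0.0678% of all genes tested. DESeq2 called all 4, beside 80 of the 30812 genes in its fit. The summed level of all 6 was 268, 233, 255 and 271 CPM in Hnf4dTEC samples, against 443, 406 and 403 CPM in Hnf4ctrl samples. The list was chosen with earlier results of these data known, so its counts are not independent evidence.

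Other genes of actin structures fell as well. Vil1, the actin-bundling protein villin (ENSMUSG00000026175.12, chr1:74409376-74435559, plus strand), had 13.7, 13.1, 12.9 and 15.1 CPM in Hnf4dTEC samples, against 25.5, 26.5 and 25.4 CPM in Hnf4ctrl samples. The values of the groups lay well apart, at a log2 fold change of -0.92 and an SE of 0.09 (edgeR adjusted p = 0.0048), and with cells thinned to 1 depth its adjusted p was 0.0969. Myo15b, an unconventional myosin, had 47.1, 41.6, 40.4 and 47.2 CPM in Hnf4dTEC samples, against 79.5, 79.4 and 63.3 CPM in Hnf4ctrl samples (log2 fold change -0.74, SE 0.09, edgeR adjusted p = 0.0207). Both were on the list of 15 tuft cytoskeleton and microvillus genes, of which 2 fell and 0 rose. Over all genes tested 0.0678% fell and 0.0203% rose. The most abundant structural genes of that list did not pass. Avil had 1425 ± 35.01 CPM in Hnf4dTEC samples and 1412 ± 80.5 CPM in Hnf4ctrl samples, and Espn, the actin bundler espin, had 821 ± 25.6 CPM in Hnf4dTEC samples and 833 ± 20.1 CPM in Hnf4ctrl samples. Krt18, the simple epithelial keratin, had 2391 ± 169 CPM in Hnf4dTEC samples and 2536 ± 17.7 CPM in Hnf4ctrl samples (SD, n = 4 and 3).

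Rhoc, a small GTPase that acts on actin, had the smallest adjusted p. It had 37.0, 35.1, 38.0 and 41.7 CPM in Hnf4dTEC samples, against 65.1, 73.5 and 65.5 CPM in Hnf4ctrl samples (log2 fold change -0.84, SE 0.08, edgeR adjusted p = 0.00391). Cald1, the actin-binding protein caldesmon, had between 128 and 140.3 CPM in Hnf4dTEC samples, against 191 to 201 CPM in Hnf4ctrl samples (log2 fold change -0.54, edgeR adjusted p = 0.00499). Clic5, a chloride intracellular channel protein that associates with ezrin in microvilli, fell less, to 113 ± 2.94 CPM in Hnf4dTEC samples, against 147 ± 8.18 CPM in Hnf4ctrl samples (log2 fold change -0.37, edgeR adjusted p = 0.0442). Rhoc, Vil1, Cald1 and Calml4 passed in all 7 fits that left out 1 sample. Myo15b lost its call in 3 of them and Clic5 in 6, with adjusted p up to 0.162 and 0.268. Clic5 also lost it with DESeq2 size factors and at 1 depth (adjusted p of 0.0504 and 0.0969).

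The other genes that fell were Pcsk5, Malrd1 and Efcab5. Pcsk5, a proprotein convertase, had 28.3, 27.9, 29.9 and 21.5 CPM in Hnf4dTEC samples, against 65.1, 66.3 and 44.4 CPM in Hnf4ctrl samples (log2 fold change -1.10, SE 0.14, edgeR adjusted p = 0.0207). Malrd1, which in the mouse gut affects the release of the hormone FGF15, had 54.3 ± 2.06 CPM in Hnf4dTEC samples and 77.0 ± 5.59 CPM in Hnf4ctrl samples (SD, n = 4 and 3; log2 fold change -0.50, edgeR adjusted p = 0.0207). Efcab5 had 30.4 ± 3.04 CPM in Hnf4dTEC samples and 49.0 ± 5.13 CPM in Hnf4ctrl samples (log2 fold change -0.68, edgeR adjusted p = 0.0268). Pcsk5 and Malrd1 each lost their call in 4 of the fits that left out 1 sample, and Efcab5 in 3. Efcab5 also lost its call at 1 depth (adjusted p of 0.274).

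The 3 genes that rose had lower levels in the other cells as a whole. Ngb, the heme protein neuroglobin (ENSMUSG00000021032.13, chr12:87097531-87102539, minus strand), had 23.5, 23.1, 15.8 and 19.3 CPM in Hnf4dTEC samples, against 8.31, 7.23 and 9.64 CPM in Hnf4ctrl samples. All Hnf4dTEC samples were above all Hnf4ctrl samples, at a log2 fold change of 1.28 with an SE of 0.17 (edgeR adjusted p = 0.0207), and other cells averaged 1.01 CPM. Dcc, a receptor of the guidance cue netrin, had 173, 143, 141 and 163 CPM in Hnf4dTEC samples, against 96.5, 107 and 111 CPM in Hnf4ctrl samples (log2 fold change 0.56, edgeR adjusted p = 0.0442). Other cells had 14.9 ± 2.78 CPM of Dcc. The noncoding transcript 4930500H12Rik had 31.5 ± 3.99 CPM in Hnf4dTEC samples and 17.5 ± 1.05 CPM in Hnf4ctrl samples (log2 fold change 0.86, edgeR adjusted p = 0.0207). In single classes, pooled 4930500H12Rik reached 26.7 CPM in Klk-rich cells, close to the 27.1 CPM of Tuft cells, and Dcc 96.0 CPM in Immature cells, against 139 CPM in Tuft cells. In Hnf4ctrl samples both were higher in those classes than in Tuft cells. Each of these 3 genes lost its call in at least 4 of the 7 fits that left out 1 sample. Ngb and Dcc also lost it with cells thinned to 1 depth (adjusted p of 0.0969 and 0.0904).

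**Figure D2:**
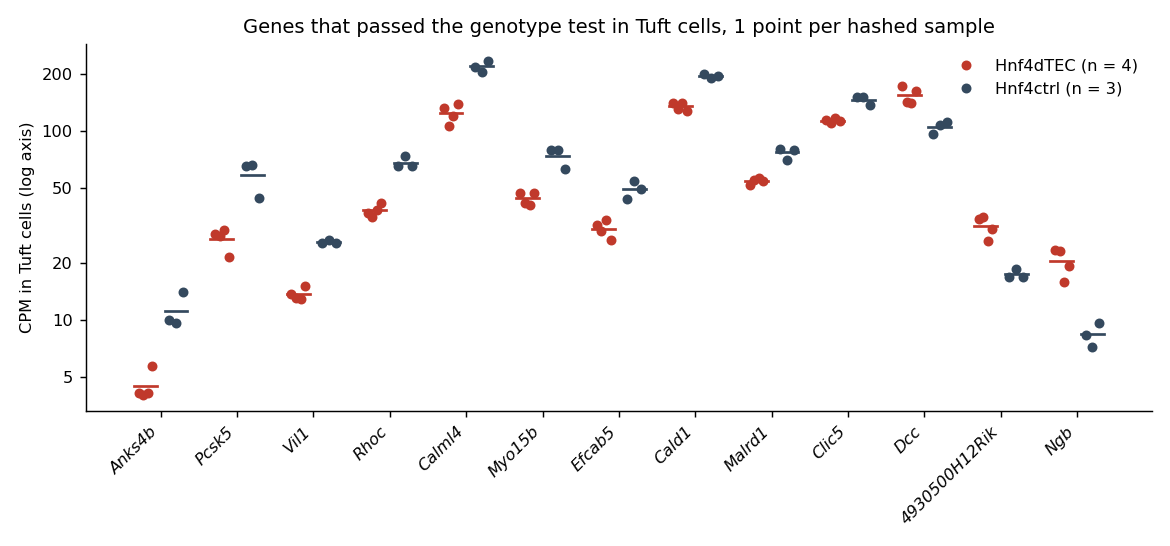
CPM on a log axis of the 13 genes that passed in Tuft cells, ordered by log2 fold change, with 1 point per sample and a line at the group mean. The 4 Hnf4dTEC points (red, left of each pair) lie below the 3 Hnf4ctrl points (dark) for 10 genes and above them for Dcc, 4930500H12Rik and Ngb.

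Some of the falls were also found in the other cells, whose mix of classes differed between the groups. Of 19456 genes tested in all other annotated cells, 46 passed (0.236%), of which 45 were lower (0.231%) and 1 was higher (0.00514%) in Hnf4dTEC cells. Rhoc, Vil1, Calml4, Myo15b, Pcsk5 and Anks4b were among these, with log2 fold changes of -1.15, -1.27, -0.72, -1.60, -0.98 and -2.33 in other cells. The Entero-hepato class had 3 cells from Hnf4dTEC samples and 82 from Hnf4ctrl samples, and it had the highest pooled level of Rhoc, Vil1, Myo15b, Pcsk5 and Anks4b among all classes. Without that class, an alternative chosen after seeing the data, 10 genes passed in other cells, 8 of them among the 46. Myo15b at -1.44 and Anks4b at -2.19 still passed (edgeR adjusted p = 0.0171 for both). Rhoc at -0.99, Vil1 at -1.01, Calml4 at -0.67 and Pcsk5 at -0.83 did not, with adjusted p between 0.0726 and 0.0970. The other 7 of the 13 genes did not pass in other cells with or without the class. With it, Malrd1 had -1.03, Efcab5 -0.80, Clic5 -0.41, Cald1 -0.17 and Ngb 1.06, each in the same direction as in Tuft cells, whereas Dcc at -0.24 and 4930500H12Rik at -0.16 had the opposite sign. The difference between the effect in Tuft cells and that in other cells passed for 0 of the 13 genes, with adjusted p between 0.398 and 0.997, so no gene of the 13 was shown to change in Tuft cells alone.

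The test of that difference passed for 3 of 19512 genes (0.0154%), Fabp1, Serinc3 and Nrp2, all of which fell in other cells and did not pass in Tuft cells. Fabp1, a fatty acid binding protein abundant in liver and gut, had 96.7, 98.0, 97.7 and 81.6 CPM in Tuft cells of Hnf4dTEC samples, against 117, 88.8 and 68.2 CPM in those of Hnf4ctrl samples. In other cells it had 8.71, 19.8, 7.68 and 8.85 CPM in Hnf4dTEC samples, against 77.9, 72.6 and 50.2 CPM in Hnf4ctrl samples. The groups overlapped in Tuft cells and lay well apart in other cells, and the 2 log2 fold changes differed by 2.71 (SE 0.25, edgeR adjusted p = 0.00596). Among the other classes Fabp1 was highest in Microfold cells, with 149 CPM pooled over Hnf4dTEC samples and 1219 CPM pooled over Hnf4ctrl samples. In the Entero-hepato class, 3 of 85 cells were from Hnf4dTEC samples, and without that class the difference was 2.62 (edgeR adjusted p = 0.00622). Without Hnf4ctrl sample 2 the adjusted p of Fabp1 was 0.0889, and no gene passed in edgeR.

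Serinc3, a membrane protein that takes part in adding serine to lipids, had 106 ± 7.59 CPM in Tuft cells of Hnf4dTEC samples and 90.4 ± 11.5 CPM in those of Hnf4ctrl samples (SD, n = 4 and 3). In other cells it averaged 86.5 CPM in Hnf4dTEC samples and 129 CPM in Hnf4ctrl samples, and the effects differed by 0.84 (edgeR adjusted p = 0.0193). Nrp2, a co-receptor of semaphorins and of vascular growth factors, had 36.7 ± 2.99 CPM in Tuft cells of Hnf4dTEC samples and 39.1 ± 3.91 CPM in those of Hnf4ctrl samples. In other cells it averaged 23.7 CPM in Hnf4dTEC samples and 46.9 CPM in Hnf4ctrl samples, and the effects differed by 0.92 (edgeR adjusted p = 0.0251). Without the Entero-hepato class the Nrp2 difference was 0.62 and did not pass (edgeR adjusted p = 0.688). With 1 sample left out, Serinc3 lost its call in 4 of 7 fits and Nrp2 in 6, with adjusted p up to 0.139 and 0.158.

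**Figure D3:**
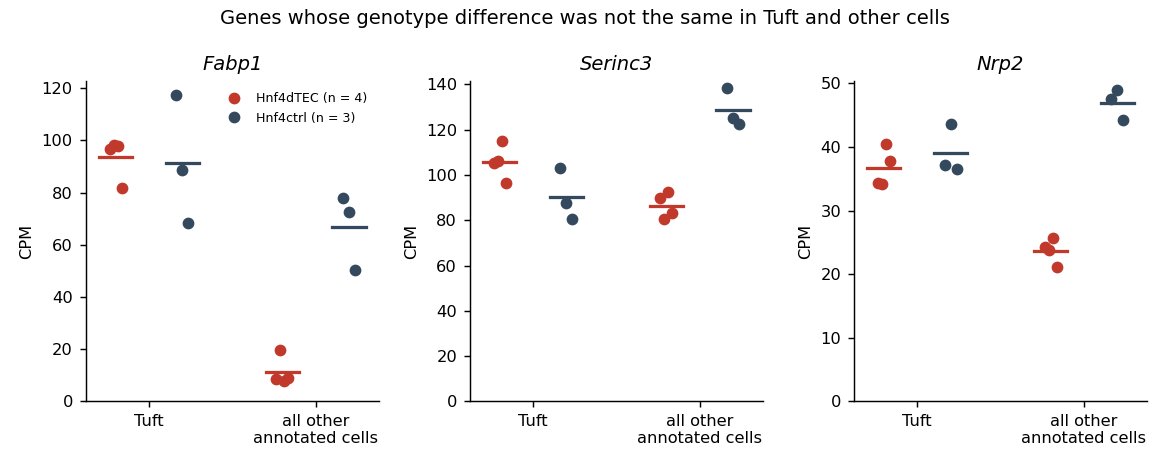
CPM of Fabp1, Serinc3 and Nrp2 in Tuft cells and in all other annotated cells, with 1 point per sample, Hnf4dTEC in red and Hnf4ctrl in dark, and a line at the group mean. For each of the 3 genes the groups overlap in Tuft cells and do not overlap in other cells.

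The gene groups that mark a tuft cell held 0 called genes among markers and transcription factors. Of the 6 defining markers 0 passed in edgeR, 1 had an unadjusted p under 0.05 and DESeq2 called 0. Each had overlapping groups, and their summed level was 6860 to 7205 CPM in Hnf4dTEC samples and 6364 to 7059 CPM in Hnf4ctrl samples. Of 14 tuft transcription factors tested 0 passed in edgeR or DESeq2, and 3 had an unadjusted p under 0.05, beside 8.74% of all genes tested, with 7 log2 fold changes below 0 and 7 above. Pou2f3, the master factor of the lineage, had 381 ± 9.74 CPM in Hnf4dTEC samples and 377 ± 27.6 CPM in Hnf4ctrl samples (SD, n = 4 and 3). Sox9 had 688 ± 26.9 CPM in Hnf4dTEC samples and 727 ± 32.4 CPM in Hnf4ctrl samples, and Gfi1b, a factor shared with some blood lineages, had 28.4 ± 3.35 CPM in Hnf4dTEC samples and 32.1 ± 2.20 CPM in Hnf4ctrl samples. A p that misses the threshold does not show that levels were equal.

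Taste signalling genes were measured from receptor to channel, and 0 of 21 passed in edgeR or DESeq2. An unadjusted p under 0.05 was reached by 9 of them, 4 lower and 5 higher, beside 8.74% of all genes tested. The median log2 fold change was 0.02. Gng13 had 5944 ± 316 CPM in Hnf4dTEC samples and 5352 ± 191 CPM in Hnf4ctrl samples (SD, n = 4 and 3; log2 fold change 0.15, edgeR adjusted p = 0.404). Plcb2, the phospholipase of the pathway, had 362 ± 31.5 CPM in Hnf4dTEC samples and 357 ± 55.4 CPM in Hnf4ctrl samples, and Trpm5 had 624 ± 31.3 CPM in Hnf4dTEC samples and 626 ± 28.3 CPM in Hnf4ctrl samples. Of 8 other nutrient and taste receptors tested, 0 passed in edgeR or DESeq2 and 0 had an unadjusted p under 0.05. Sucnr1, the succinate receptor, had 18.6 ± 4.33 CPM in Hnf4dTEC samples and 15.3 ± 7.24 CPM in Hnf4ctrl samples. Tas1r3, the shared subunit of sweet and umami receptors, had 34.1 ± 2.77 CPM in Hnf4dTEC samples and 34.9 ± 5.98 CPM in Hnf4ctrl samples. Its umami partner Tas1r1 had 28.6 ± 2.02 CPM in Hnf4dTEC samples and 25.2 ± 3.53 CPM in Hnf4ctrl samples.

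Bitter receptors (Tas2r) were broadly expressed in Tuft cells. Of the 35 in the files, 34 had a UMI in Tuft cells, 32 had at least 10, and all of these 32 had a higher mean CPM in Tuft than in other cells. Tas2r139 had 0 UMIs. The levels spanned a wide range, with Tas2r105 highest, Tas2r109 next at 40.9 ± 10.1 CPM in Hnf4dTEC samples and 30.6 ± 8.71 CPM in Hnf4ctrl samples, and 18 of the 35 under 5 CPM over all samples. At 4000 UMIs per cell, 52.8% of Tuft cells had no bitter receptor UMI, 20.1% had UMIs of 1 receptor, and 1 cell had UMIs of 12. In other cells 96.5% had none. Of the 35 genes 33 lie on chromosome 6, and several are near copies of each other, so reads could be split between them.

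Most bitter receptors had higher values in Hnf4dTEC Tuft cells, but 0 of 28 tested passed in edgeR. An unadjusted p under 0.05 was reached by 12, all higher, beside 8.74% of all genes tested. DESeq2 called 2, Tas2r104 and Tas2r105, beside 80 of the 30812 genes in its fit. The summed level of all 35 was 452, 431, 377 and 394 CPM in the 4 Hnf4dTEC samples, against 308, 337 and 299 CPM in the 3 Hnf4ctrl samples, and these sums did not overlap. The number of bitter receptors with a UMI per cell, at 4000 UMIs, averaged 1.41, 1.32, 1.19 and 1.28 in Hnf4dTEC samples, against 0.972, 0.990 and 0.951 in Hnf4ctrl samples. The share of Tuft cells with at least 1 was 49.2 ± 2.41% in Hnf4dTEC samples (SD, n = 4) and 42.7 ± 1.20% in Hnf4ctrl samples (SD, n = 3). Of the 28, 27 had a log2 fold change above 0, with a median of 0.45, whereas 50.5% of all genes tested were below 0. Groups did not overlap for 8 of the 28, beside 8.97% of all genes tested. The smallest adjusted p was that of Tas2r104, which had 19.5, 19.0, 17.2 and 21.5 CPM in Hnf4dTEC samples, against 13.6, 11.1 and 10.1 CPM in Hnf4ctrl samples (log2 fold change 0.74, edgeR adjusted p = 0.0899). Tas2r105 had 99.7, 86.5, 75.3 and 98.0 CPM in Hnf4dTEC samples, against 63.8, 58.1 and 76.3 CPM in Hnf4ctrl samples, with overlapping groups (edgeR adjusted p = 0.262). The receptors share chromosome, cells and samples, so they are not independent of each other.

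**Figure D4:**
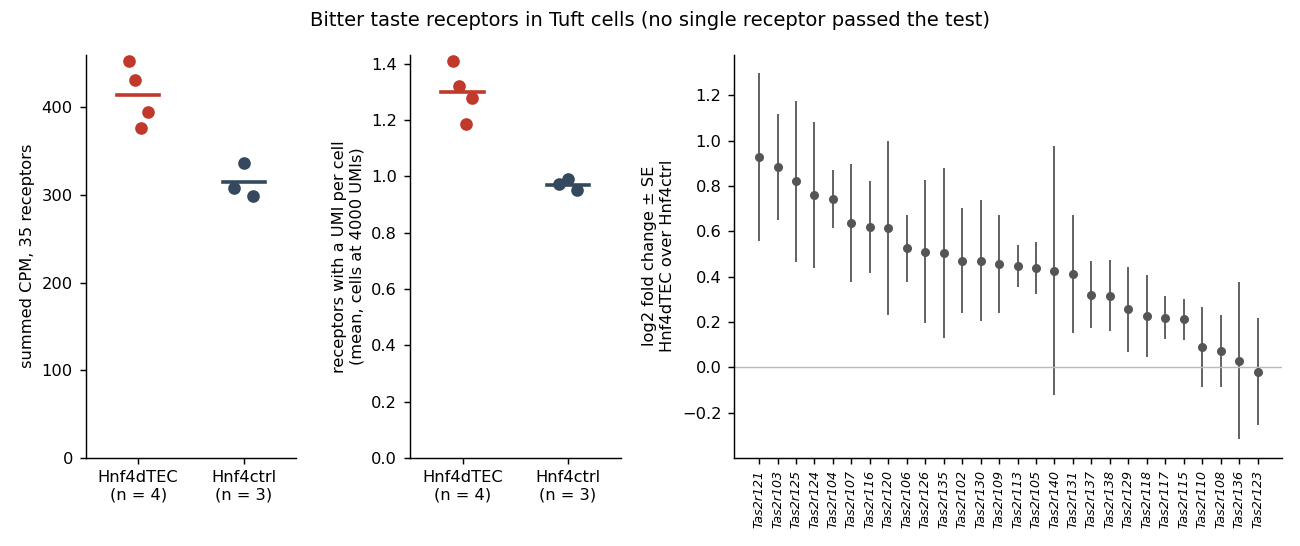
Bitter taste receptors in Tuft cells, as the summed CPM of 35 receptors per sample (left), the mean number with a UMI per cell thinned to 4000 UMIs (middle), and the log2 fold change of each of 28 tested receptors with its SE (right). Hnf4dTEC samples are red and left of Hnf4ctrl samples, and 27 of the 28 fold changes lie above 0.

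Genes of the mediators that Tuft cells release gave 0 calls in edgeR and in DESeq2. An unadjusted p under 0.05 was reached by 1 of 11 cytokine and cytokine receptor genes, 1 of 12 eicosanoid genes and 3 of 7 acetylcholine genes. Over all genes tested the share was 8.74%. Il25 had 109.6, 114, 102 and 115 CPM in Hnf4dTEC samples, against 129, 106 and 73.6 CPM in Hnf4ctrl samples, with overlapping groups (edgeR adjusted p = 0.899). Il10 had 169.9 ± 7.42 CPM in Hnf4dTEC samples and 176 ± 19.4 CPM in Hnf4ctrl samples, and Tslp, a cytokine of epithelial cells, had 29.4 ± 1.88 CPM in Hnf4dTEC samples and 31.2 ± 17.1 CPM in Hnf4ctrl samples (SD, n = 4 and 3). Alox5, the first enzyme of leukotriene synthesis, had 431 ± 16.6 CPM in Hnf4dTEC samples and 461 ± 24.7 CPM in Hnf4ctrl samples. Ptgs1, cyclooxygenase 1, had 299.8 ± 24.7 CPM in Hnf4dTEC samples and 306 ± 38.4 CPM in Hnf4ctrl samples. Hpgds, which makes prostaglandin D2, had 212 ± 12.5 CPM in Hnf4dTEC samples and 246 ± 6.55 CPM in Hnf4ctrl samples. Chat had 150.0 ± 8.83 CPM in Hnf4dTEC samples and 163 ± 15.1 CPM in Hnf4ctrl samples, with overlapping groups. Of 11 surface proteins 0 passed in edgeR or DESeq2 and 2 had an unadjusted p under 0.05, and Siglecf had 5.43 ± 1.01 CPM in Hnf4dTEC samples and 9.02 ± 1.23 CPM in Hnf4ctrl samples (log2 fold change -0.73, edgeR adjusted p = 0.266).

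Gut and liver genes were mostly low in Tuft cells. Of 40 gut epithelium genes 14 passed the filter on low counts, 1 fell (Vil1) and 0 rose. Unadjusted p was under 0.05 for 8 of the 14, all lower, beside 8.74% of all genes tested. DESeq2 called 3, Vil1, Cdhr2 and Cdhr5, beside 80 of the 30812 genes in its fit. Cdhr2 and Cdhr5 are also in the adhesion complex. The summed level of all 40 was 397 to 417 CPM in Hnf4dTEC samples and 496 to 616 CPM in Hnf4ctrl samples, beside 1284 to 3655 CPM in other cells. Of the 14 tested, 13 were below 0, beside 50.5% of all genes tested, and the median log2 fold change was -0.59. With cells thinned to 1 depth the median was -0.36, over those of the 14 that were tested in that fit. Reg3g, an antibacterial lectin, moved with this sum, at 32.8 ± 12.8 CPM in Hnf4dTEC samples and 92.6 ± 53.1 CPM in Hnf4ctrl samples with overlapping groups, beside 1769 CPM in other cells, and its part in it was not tested. Of 25 liver genes 3 could be tested, and 0 passed in edgeR or DESeq2 or had an unadjusted p under 0.05. Ahsg, a secreted liver glycoprotein, had 20.8 ± 3.31 CPM in Hnf4dTEC samples and 15.6 ± 6.77 CPM in Hnf4ctrl samples, beside 2.12 CPM in other cells. Among 9 gut and liver transcription factors tested 0 passed in edgeR or DESeq2 and 1 had an unadjusted p under 0.05, with Klf5 at 275 ± 14.5 CPM in Hnf4dTEC samples and 258 ± 19.8 CPM in Hnf4ctrl samples.

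**Figure D5:**
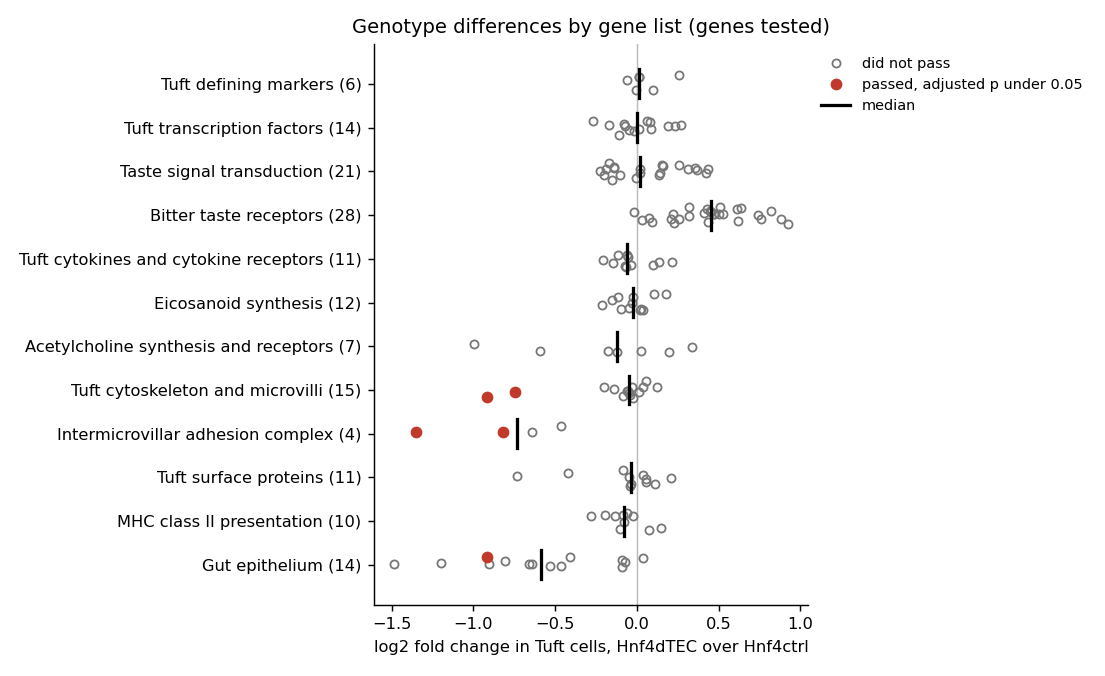
Log2 fold changes in Tuft cells, Hnf4dTEC over Hnf4ctrl, of the tested genes of 12 lists (their number in brackets), with a black bar at each median and red points for genes that passed. The red points are Vil1 and Myo15b among cytoskeleton genes, Calml4 and Anks4b in the adhesion complex, and Vil1 again among gut genes.

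Signs of other cell types and of handling were compared between the groups. MHC class II genes were low in Tuft cells, with a summed 812 to 939 CPM in Hnf4dTEC samples and 821 to 1036 CPM in Hnf4ctrl samples, beside 12072 to 17744 CPM in other cells, and 0 of 10 passed in edgeR or DESeq2, with 1 at an unadjusted p under 0.05. The 10 neuroendocrine markers summed to 147, 48.4, 346 and 61.5 CPM in Hnf4dTEC samples, against 59.3, 77.4 and 71.3 CPM in Hnf4ctrl samples, and Chga, a protein of secretory granules, made up 303 CPM of the 346. Of the 5 tested in edgeR 0 passed, and 4 were below 0, with a median log2 fold change of -0.33. An unadjusted p under 0.05 was reached by 3 of the 5, 2 lower and 1 higher. The 8 secretory markers include Reg3g, which is also in the gut sum. They summed to 216 to 351 CPM in Hnf4dTEC samples and 353 to 544 CPM in Hnf4ctrl samples, so these sums did not overlap. DESeq2 called 1 of the 8, Wfdc2, which was lower, beside 80 of the 30812 genes in its fit. Of the 5 secretory markers tested in edgeR 0 passed, and 3 had an unadjusted p under 0.05, 2 lower and 1 higher. The Aire-stage sums did not overlap either, with 167 to 182 CPM in Hnf4dTEC samples and 184 to 205 CPM in Hnf4ctrl samples. Of their tested members 5 of 5 were below 0, beside 50.5% of all genes tested. The endothelial sums also lay apart, with 93.9 to 107 CPM in Hnf4dTEC samples and 108 to 126 CPM in Hnf4ctrl samples, most of it Tek. In other cells the endothelial sums were lower than in Tuft cells, at 32.6 to 66.4 CPM. Among all single genes tested, 8.97% had groups that did not overlap. The 10 entero-hepato markers summed to 99.3 to 117 CPM in Hnf4dTEC samples and 106 to 147 CPM in Hnf4ctrl samples, and these include Vil1 and Fabp1. The part of these markers in the genotype differences was not tested. Early response genes of cell dissociation summed to 3266 to 3800 CPM in Hnf4dTEC samples and 3129 to 4721 CPM in Hnf4ctrl samples, and 0 of 12 passed in edgeR or DESeq2, with 1 at an unadjusted p under 0.05. Of 11 interferon genes and 7 proliferation genes tested 0 passed in either tool, with 1 and 0 at an unadjusted p under 0.05. For all these sets, the share of all genes tested with an unadjusted p under 0.05 was 8.74%.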

How the data were processed

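RNA was counted in single cells of 7 hash-tagged samples, and the authors' deposited matrix holds UMI counts per gene and barcode, as whole numbers (55487 genes, 18089 barcodes). Per the submitters' processing notes the tools were Seurat 4.0.2 and Cell Ranger 6.1.0, with mm10, whereas the file header names Cell Ranger 7.0.0. The authors' deposited cell table gave 9185 barcodes a class and a sample, and no further filter was applied. Cell classes and the groups came from the deposited table and the labels, and a second library held hash tags alone. Counts of Tuft cells, and of all other annotated cells, were summed per sample. Sums went into edgeR 4.0.16, by its quasi-likelihood test (R 4.3.3, limma 3.58.1), after filterByExpr and TMM, with Benjamini-Hochberg adjustment over all genes tested. The test of the difference between Tuft and other cells was the interaction of genotype and class, with the sample as a block. CPM were computed from these counts, and pooled class levels are without TMM. Shares and depths used exact two-sided permutation over 35 splits. Doublets were scored with Scrublet (scanpy 1.11.5), which marked 203 annotated cells (2.21%) and 27 Tuft cells, and were kept. The fits were tested on simulated data. Gene positions came from GENCODE mouse release M21 and promoters from RefSeq. Shares pooled over cells cover no spread between samples, and free RNA in the shared library adds UMIs to every class. The members and gene lists were chosen with earlier results of these data known. Named genes were drawn from those that passed either test, the 20 leading genes, the 4 most abundant members of each list, members that define a pathway, and bitter receptors with at least 10 UMIs; others are said to be chosen by their values or stand beside a result they moved with. Alternatives were no low-count filter, DESeq2 1.42.0 and its size factors, leaving out cells with another sample's hash tag or marked as doublets, a need for 3 of 6 markers, thinning to 4000 UMIs, leaving out each sample, a replicate block, and other cells without the Entero-hepato class.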

Additional observations from a re-analysis of the deposited data

Results flagged for a closer look

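A sample far from the others of its group, or a difference between Tuft and other cells, marked 6 results. Among 60 sets of 4 Hnf4dTEC values, 3 held a sample whose gap to the next was large against the range of the set, where chance alone marks about 1 in 20. Anks4b in Tuft cells had 5.71 CPM in Hnf4dTEC sample 4, above the other 3 samples and below the 9.64 CPM of the lowest Hnf4ctrl sample. Fabp1 in Tuft cells had 81.6 CPM in the same Hnf4dTEC sample, below the other 3. The summed level of 7 ciliated cell markers in Tuft cells was 171 CPM in Hnf4dTEC sample 3, above the other 3 samples and within the 133 to 199 CPM of Hnf4ctrl samples.

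The genotype effect in Tuft cells differed from that in other cells for 3 genes by the interaction test in edgeR. The log2 difference was 2.71 for Fabp1, 0.84 for Serinc3 and 0.92 for Nrp2, and in each case the gene fell in other cells and did not pass in Tuft cells.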

How the results depend on the processing

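The number of genes that passed in Tuft cells was 13. It was 470 with no low-count filter and 80 with DESeq2, and each of these sets held all 13. It lay between 11 and 16 with DESeq2 size factors, without mismatched hash tags, without doublets, with 3 of 6 markers and at 1 depth, where 7 of the 13 passed. Leaving out 1 sample gave 5 to 52 genes, with 52 without Hnf4ctrl replicate 3, 5 without Hnf4dTEC replicate 2 or Hnf4ctrl replicate 2, 6 without Hnf4ctrl replicate 1 and 7 without Hnf4dTEC replicate 1. Calls of the difference between Tuft and other cells numbered 3, against 244 with no filter and 0 to 5 with 1 sample left out, with 0 without Hnf4ctrl replicate 2, 1 without Hnf4dTEC replicate 2 or 3 or Hnf4ctrl replicate 3, and 5 without Hnf4dTEC replicate 1. The 13 genes, the 3 genes of the difference test and Hnf4g kept their direction in each of these fits. The difference in Tuft share ranged from -3.67 to 8.56 percentage points, and that in median depth from -388 to 967 UMIs, with 1 sample left out. The median of the bitter receptors stayed between 0.37 and 0.50, and that of the gut genes between -0.60 and -0.36, with -0.36 at 1 depth and -0.41 without Hnf4ctrl replicate 3. Each of these medians covers only the list members that were also tested in that fit. Without the Entero-hepato class, genes that passed in other cells numbered 10, against 46 with it. Samples of equal number correlated at 0.41, 0.35 and -0.21, and those of unequal number at -0.54 to 0.25. These values do not settle whether the numbers pair the samples. A replicate block over samples 1 to 3 gave 19 genes, 8 of them among the 13 (not Malrd1, Ngb, Efcab5, Dcc or Clic5), and the same samples without the block, an alternative chosen after seeing the data, gave 13. The cause of these shifts was not tested. At these counts 7 of 35 bitter receptors and 26 of 40 gut genes were too low to test.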

Other observations

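Of the 10 genes with the smallest adjusted p among those that did not pass in Tuft cells, 3 are given here, chosen after their values were seen for their names. The others were Sgms2, Kif23, Spock3, Gm609, Tas2r104, Slc30a4 and Gm34583, with adjusted p between 0.0675 and 0.0899. Eps8l3, a relative of the actin regulator Eps8, had 0.453 ± 0.165 CPM in Hnf4dTEC samples and 2.48 ± 0.851 CPM in Hnf4ctrl samples (SD, n = 4 and 3; 57 UMIs in all, edgeR adjusted p = 0.0675). The bitter receptor pseudogene Tas2r142-ps5, which is not on the receptor list, had 71.7 ± 7.16 CPM in Hnf4dTEC samples and 49.4 ± 3.37 CPM in Hnf4ctrl samples (edgeR adjusted p = 0.0675). Rgs7, a regulator of G protein signalling, had 99.2 ± 15.8 CPM in Hnf4dTEC samples and 60.1 ± 8.09 CPM in Hnf4ctrl samples (edgeR adjusted p = 0.0936).

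A few Tuft cells held much haemoglobin RNA. The 4 haemoglobin genes summed to 25.2, 886, 852 and 1282 CPM in Hnf4dTEC samples, against 19.1, 2131 and 35.8 CPM in Hnf4ctrl samples, and most of this came from the 14 cells with 10 or more haemoglobin UMIs. High and low samples occurred in both groups.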
